A study of Gallus gallus and Columba livia with 18 samples.

Results

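The genes described here are 8 members of the Notch pathway, followed in the developing retina of 2 birds, chicken (Gallus gallus) and pigeon (Columba livia). They are the receptors NOTCH1 and NOTCH2, the receptor-modifying enzyme LFNG, the ligands DLL1, DLL4 and JAG1, and the transcriptional effectors HES5 and HEY1. Members were taken by symbol, in every row that carries it. The chicken table names all 8 in 8 of its 24708 rows, and the pigeon table names 3 of them (DLL1, JAG1 and HEY1) in 4 of its 16652 rows, since DLL1 stands in 2. The other 5 symbols were matched to no pigeon row.

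Libraries of mRNA were sequenced from whole retinas of embryos incubated at 37 °C, and the labels name no strain, genotype or treatment. The stages were E3 (embryonic days 3 to 3.5), E5 (days 5 to 5.5) and E8 (days 8 to 8.5). Each of the 6 groups of species and stage had 3 libraries, 18 in all, and each library pooled 1 to 6 retinas. The deposited tables hold a single value for each gene and stage, in FPKM (read fragments scaled by transcript length and by the mapped total), so no value here has a replicate error, and no difference has a p-value.

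Notch receptors sit on the cell surface and are activated by Delta (DLL) or Jagged (JAG) ligands on a neighbouring cell. Binding leads to cleavage of the receptor, and its inner part enters the nucleus and, with the DNA-binding protein RBPJ, turns on genes of the HES and HEY families. These repress proneural factors. In the vertebrate retina the pathway is known for keeping some cells as dividing progenitors while their neighbours become neurons, so ligand-bearing newborn neurons and HES5-bearing progenitors lie side by side.

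Stages were compared by the difference of log2(FPKM + 1), a scale on which low genes appear to change less than they did. Differences of 1 or more in size were counted, as higher or as lower. In bulk tissue, more cells of a type and more RNA per cell cannot be told apart. Of 9 genes known from retinal progenitors, 8 were found in chicken and 4 in pigeon. Of these, 0 were listed at 0 at any stage. The 8 chicken genes had a median change of 0.21 at E5 against E3, with 0 higher and 0 lower. At E8 against E5 their median was 0.38, with 1 higher (FGF19, 2.04) and 0 lower. The 4 pigeon genes had medians of 0.18 and 0.54, and only CCND1 was past 1, at E8 (1.37). How far the members' changes follow the number of progenitors was not tested. Other tissues left RNA in the samples. The summed level of 12 chicken pigment epithelium genes was 57.5 FPKM at E3, 240.3 at E5 and 14.7 at E8, and that of 11 lens genes was 693, 780.4 and 62.9. In pigeon the 12 pigment epithelium rows summed to 212, 225 and 31.2, and the 12 lens rows to 23.3, 19.8 and 20.7. The lens sums at E8 rest largely on CRYAB, at 1.12, 0.622 and 12.5 FPKM in pigeon and 51.6, 45.8 and 52.1 in chicken. Of 5 pigeon lens genes compared from E5 to E8, 2 were lower by at least 1, and only CRYAB was higher. Genes of red blood cells summed to 799, 1927 and 124 FPKM in 6 chicken rows and to 6370, 2301 and 123 in 8 pigeon rows. The part of these tissues in the changes given here was not tested.

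In chicken, 4 of the 8 members were higher at E5 than at E3 by at least 1 log2 unit (HES5, LFNG, DLL4 and NOTCH1) and 0 were lower. Over all genes 1.97% of 14490 were higher and 1% were lower. From E5 to E8 those 4 were higher again and JAG1 was lower, against 4.53% of 14540 genes higher and 4.46% lower. Between E3 and E8, HEY1 joined them, which gave 5 higher and 1 lower against 6.65% and 5.29% of 14451 genes. The members' median change was 1.06 for the earlier step and 0.93 for the later one, where the medians of all genes were −0.0034 and −0.0011. The members were chosen with earlier results of these data known, so these counts describe them and support nothing further.

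**Figure D1:**
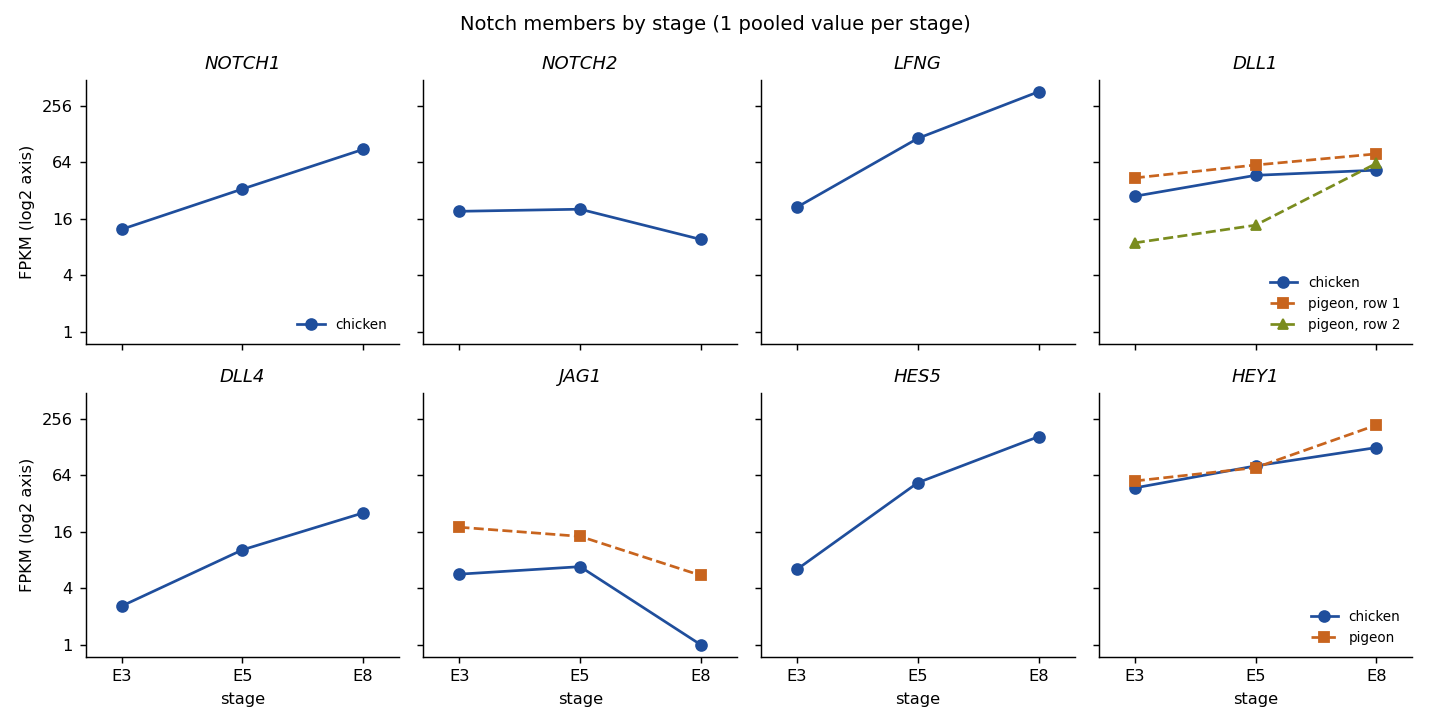
FPKM of each member (vertical log2 axis) at E3, E5 and E8, with chicken as circles and solid lines and pigeon as squares or triangles and dashed lines. Each point is the 1 pooled value of a stage. HES5, LFNG, NOTCH1 and DLL4 stand higher at each later stage in chicken, while JAG1 stands lowest at E8 in both species, at 1.00 and 5.49 FPKM. Levels of the 2 species come from tables normalised separately.

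Among the receptors, NOTCH1 and NOTCH2 exchanged places in chicken. NOTCH1, the main Notch receptor of neural progenitors, lies on chromosome 17 from 8495961 to 8532626 (XLOC_007161) and was at 12.4 FPKM at E3, 33.2 at E5 and 87.7 at E8. Its level grew by nearly equal factors at each step, with log2 changes of 1.36 and 1.38. NOTCH2, a receptor of the same family, lies on chromosome 8 from 4186592 to 4266583 (XLOC_020381) and was at 19.2, 20.2 and 9.64 FPKM. It was flat from E3 to E5 (0.07), and its change from E5 to E8, at −0.996, was just short of the threshold. It was past it under other scalings of the stages, at −1.02 and −1.001. NOTCH2 was thus the higher of the pair at E3 and the lower at E5 and E8. Of the summed FPKM of the pair, NOTCH1 made up 39.1% at E3, 62.1% at E5 and 90.1% at E8. Another row, ENSGALG00000023837, is listed with the very coordinates of NOTCH2 and was at 23.6, 29.8 and 14.0 FPKM. No source used here says how reads were split between these 2 rows. The level of NOTCH2, the shares of the pair and which receptor was higher at E5 are thus uncertain.

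LFNG (lunatic fringe) adds a sugar to the O-fucose residues of the Notch receptor and is known to favour its response to Delta over Jagged ligands. It lies on chicken chromosome 14 from 3238852 to 3245627 (XLOC_005817). LFNG was at 21.3, 115 and 361 FPKM, and changed by 2.38 and then by 1.64 on the log2 scale. Only 14 of the 14490 genes compared had a larger change from E3 to E5. It stood below HEY1 and DLL1 at E3 and was the highest of the 8 members at E5 and E8.

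The 3 ligands followed different courses in chicken. DLL1, a Delta ligand of newborn neurons, lies on chromosome 3 from 42712603 to 42720881 (XLOC_013786) and was at 27.8, 46.4 and 52.7 FPKM. Its changes of 0.72 and 0.18 both stayed under 1, and 80.1% of its log2 change between E3 and E8 had been reached at E5. Larger changes than that of DLL1 were found for 557 of 14490 genes from E3 to E5. From E5 to E8 they were found for 4597 of 14540. DLL4, the other Delta ligand measured, known both from vessel sprouting and from newborn retinal neurons, lies on chromosome 5 from 26561746 to 26573090 (XLOC_017496). It was the lowest member at E3, at 2.59 FPKM, and reached 10.3 at E5 and 25.4 at E8, with log2 changes of 1.65 and 1.23. JAG1, a Jagged ligand known in the eye from the lens and the ciliary margin, lies on chromosome 3 from 14397432 to 14434238 (XLOC_013592). It was at 5.66, 6.81 and 1.00 FPKM, the one ligand lower at E8 than at E3. Its change from E5 to E8 was −1.96, and 150 of 14540 genes had a lower one. With a pseudocount of 5 in place of 1, the E5 to E8 changes of JAG1 and DLL4 were just under the threshold, at −0.98 and 0.99.

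The make-up of the ligand pool changed with these courses. FPKM is scaled to length, so the levels of the genes can be summed. Of the sum of DLL1, DLL4, JAG1 and JAG2 (a second Jagged ligand), DLL4 made up 6.13% at E3, 14.5% at E5 and 28.4% at E8 in chicken. JAG1 made up 13.4%, 9.58% and 1.12%. DLL1 stayed the largest part at 65.8%, 65.3% and 58.8%, and the sum itself went from 42.3 to 71.1 and 89.6 FPKM.

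**Figure D2:**
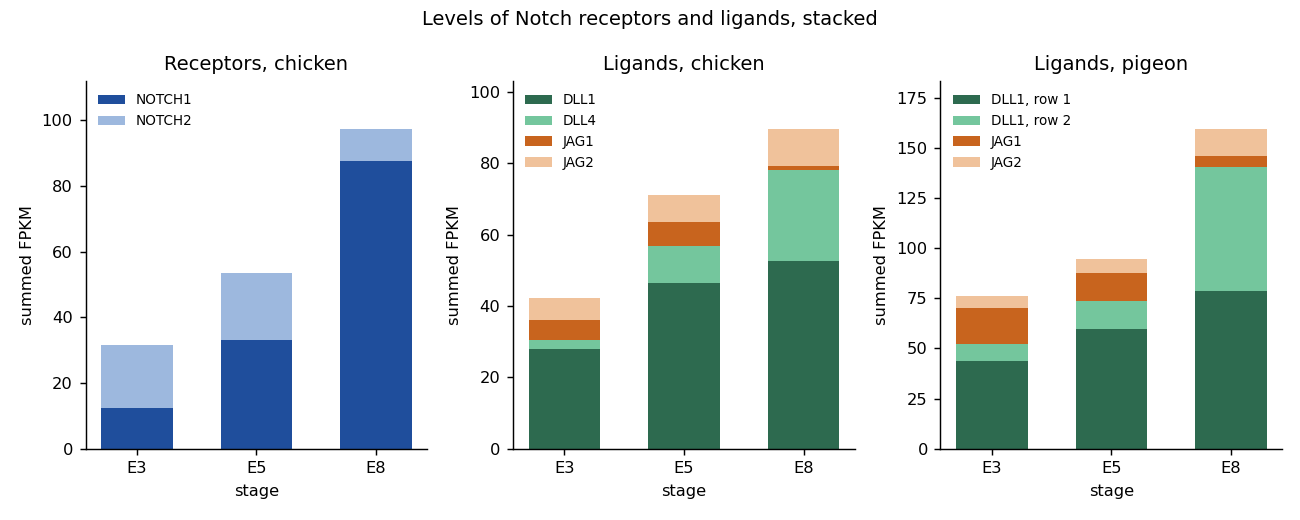
Stacked FPKM of the receptors NOTCH1 and NOTCH2 in chicken, and of the ligands in chicken and in pigeon, at each stage. Bars start at 0, and the vertical scales differ between panels. The NOTCH1 part grows from 39.1% to 90.1% of the receptor sum, and the JAG1 part shrinks in both species. Another row with the coordinates of NOTCH2 is not in the receptor sum, so the receptor shares are uncertain.

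Of the effectors, HES5 had the larger change. HES5, a basic helix-loop-helix repressor that holds neural progenitors undifferentiated, lies on chromosome 21 from 1408274 to 1410164 (XLOC_011320). It was at 6.39 FPKM at E3, 53.4 at E5 and 165 at E8, and changed by 2.88 and then by 1.61. From E3 to E5, 4 of 14490 genes had a larger change. HEY1, a related repressor, lies on chromosome 2 from 125469141 to 125473559 (XLOC_009727) and was at 46.9, 80.5 and 126 FPKM. It was the highest member at E3 and changed by 0.77 and 0.64, each under 1, and by 1.41 between E3 and E8. Larger changes than that of HEY1 were found for 499 of 14490 genes from E3 to E5. From E5 to E8 they were found for 1438 of 14540.

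The timing of these changes was similar for most of the members that were higher at E8. The share of the log2 change between E3 and E8 that had been reached at E5 was 64.1% for HES5, 59.2% for LFNG, 57.3% for DLL4, 54.4% for HEY1 and 49.7% for NOTCH1. By level, the order at E3 was HEY1, DLL1, LFNG, NOTCH2, NOTCH1, HES5, JAG1 and DLL4, and at E8 it was LFNG, HES5, HEY1, NOTCH1, DLL1, DLL4, NOTCH2 and JAG1. With 1 value per stage, no spread is at hand to say which neighbours in these orders differ.

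**Figure D3:**
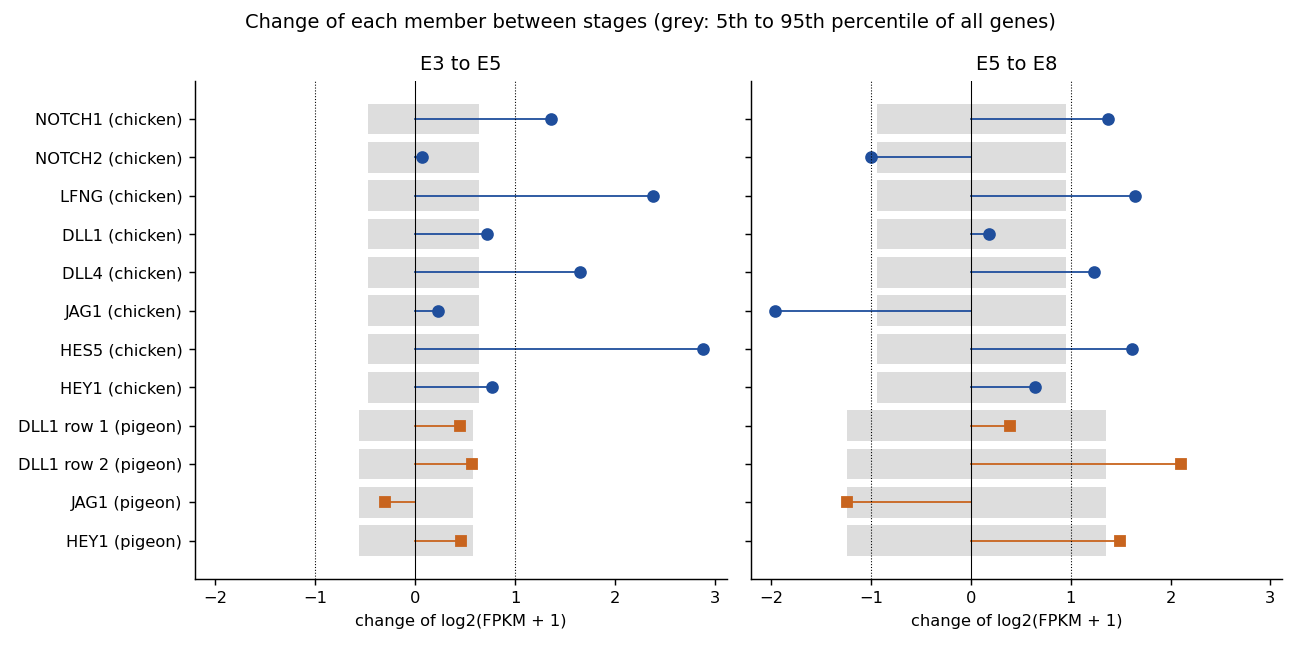
Change of log2(FPKM + 1) of each member row in the earlier step, E3 to E5 (left), and the later one, E5 to E8 (right), for chicken (circles) and pigeon (squares). Grey bars run from the 5th to the 95th percentile of all genes compared in that species and interval, and dotted lines mark −1 and 1. HES5 and LFNG stand farthest right at E3 to E5, at 2.88 and 2.38, and chicken JAG1 stands farthest left at E5 to E8, at −1.96.

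In pigeon, HEY1, JAG1 and the second DLL1 row changed more in the later step than in the earlier one, and the first DLL1 row did not. From E3 to E5, 0 of the 4 rows were higher or lower by at least 1, against 1.51% and 1.36% of 11948 genes. Among all pigeon changes of that step, the DLL1 rows stood at percentiles 92.5 and 94.8, HEY1 at 92.9 and JAG1 at 11.8. In the later step these rows stood at 74.2, 98, 95.8 and 5.04. From E5 to E8, HEY1 and the second DLL1 row were higher and JAG1 was lower, against 8.04% and 7.25% of 11820 genes, and the same 2 rows were higher and JAG1 lower between E3 and E8 (9.39% and 8.58% of 11785 genes). The members with the largest changes in chicken from E3 to E5 carry no name in pigeon, so the counts of the 2 species are not counts of the same members. As a stand-in for depth, each value was divided by the smallest nonzero FPKM at that stage among gene models within 2% of the same length. The 4 rows held between 125 and 1399.5 such steps at each stage.

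HEY1 (scaffold791 from 229198 to 230888, Cli_R015158) was at 55.6, 77.1 and 219 FPKM in pigeon. Its changes were 0.46 and 1.49, and 23.7% of its log2 change between E3 and E8 had been reached at E5, against 54.4% in chicken. JAG1 (scaffold490 from 1682665 to 1715450, Cli_R010870) was at 17.9, 14.3 and 5.49 FPKM, with changes of −0.30 and −1.24, the latter −0.88 with a pseudocount of 5. Between E3 and E5 JAG1 was thus slightly lower in pigeon and slightly higher in chicken (0.23), both under 1, and it was lower at E8 in both. The 2 DLL1 rows differed. The first (scaffold232 from 4759144 to 4765687, Cli_R005561) was at 43.6, 59.8 and 78.5 FPKM, with changes of 0.45 and 0.39. The second (scaffold34 from 2456991 to 2464720, Cli_R008162) was at 8.86, 13.7 and 62.1 FPKM, with changes of 0.57 and 2.10.

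Pigeon changes were set against chicken changes of the same symbol. For HEY1 the pigeon change minus the chicken change was −0.30 for E3 to E5 and 0.85 for E5 to E8. For JAG1 it was −0.53 and 0.73, and for the first DLL1 row −0.27 and 0.21, all under 1 in size. For the second DLL1 row it was −0.15 and 1.93, and 1.78 between E3 and E8, so this was the 1 row of 4 with a difference of at least 1. That row stands between the neighbours of chicken DLL4, so its difference from chicken DLL1 may not compare the same gene. The JAG1 difference for E5 to E8 depended on the pseudocount, at 1.28 with 0.1 and 0.096 with 5. Among symbols listed once in both tables, 5.03% of 5304 had a difference of at least 1 from E5 to E8, 3.22% had one of −1 or less, and from E3 to E5 the shares of 5322 symbols were 0.789% and 1.84%. Between E3 and E8 they were 5.72% and 4.49% of 5298 symbols. The percentile of the difference over these symbols, for E3 to E5 and then E5 to E8, was 12.3 and 93.1 for HEY1. For JAG1 it was 6.03 and 90.8, for the first DLL1 row 13.9 and 63.5, and for the second 23 and 99.1.

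The second DLL1 row lies among other neighbours than the first. In pigeon it stands between VPS18 and INO80, which in the chicken table lie on either side of DLL4 on chromosome 5. In chicken CHAC1 also lies between DLL4 and INO80, and no pigeon row in this interval carries its name. The first row stands between FAM120B and TCTE3, which flank DLL1 on chicken chromosome 3. Both pigeon rows carry the same Ensembl transcript identifier. The second shares its interval with a row of 165 bases listed at 0. Set against chicken DLL4, with changes of 1.65 and 1.23, the second row had a similar change between E3 and E8 (2.68 against 2.88), with more of it in the later step, while chicken DLL1 changed by 0.90 between E3 and E8. No name other than the table's own is given to it here.

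The same look at neighbours was made for all 8 members, a step chosen after seeing the data. For each chicken member, the nearest named genes on either side that stand on 1 pigeon scaffold were found, and the pigeon rows between them were read. The 3 members named in pigeon were found in this way between the same neighbours. Between MMEL1 and PANK4, which flank HES5 in chicken, lie 3 pigeon rows with protein accessions in place of a symbol. They were at 20.9, 65.8 and 299 FPKM, at 119, 279 and 1242 FPKM, and at 179, 385 and 1941 FPKM over the stages. All 3 were higher by at least 1 at each step, with changes from 1.10 to 1.61 and then from 2.15 to 2.33. The first and the last of these rows share an accession and an Ensembl identifier, so how reads were split among near copies is uncertain.

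Between GRIFIN and TTYH3, the neighbours of LFNG, lies 1 pigeon row, named MFNG (manic fringe, a related enzyme) in the table, at 44.4, 89.6 and 397 FPKM. Its changes were 0.997, just short of the threshold, and 2.14. Between EGFL7 and SEC16A, the neighbours of NOTCH1, lie 2 rows with no name, at 31.3, 46.6 and 150.5 FPKM and at 56.5, 82.3 and 262 FPKM. Both changed by under 1 from E3 to E5 (0.56 and 0.53) and by more from E5 to E8 (1.67 and 1.66). Between PACS2 and REG4, on either side of NOTCH2, lie 4 rows with no name, of which 2 carry the Ensembl identifiers of the pair at the NOTCH1 neighbours. Of these identifiers, 1 stands in 4 pigeon rows in all, so also at other places, and the other in 2. The 2 rows with these identifiers at the NOTCH2 neighbours were at 33.9, 30.7 and 13.5 FPKM and at 43.6, 40.5 and 19.6 FPKM. Their changes from E5 to E8 were −1.13 and −1.01. The 2 others, on short models of 261 and 192 bases, changed by −0.30 and −0.92. The rows at the neighbours of HES5, LFNG, NOTCH1 and DLL4 were thus higher, and those at the neighbours of NOTCH2 lower, at E8 than at E3, as the chicken members were. For the rows at the HES5, LFNG, NOTCH1 and DLL4 neighbours the later step was larger than the earlier one. In chicken, HES5, LFNG and DLL4 changed more in the earlier step. Over all pigeon genes, 8.04% were higher by at least 1 in the later step against 1.51% in the earlier, and in chicken 4.53% against 1.97%. The later step spans more days, and whether equal days are equal retinal stages in the 2 birds was not tested.

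**Figure D4:**
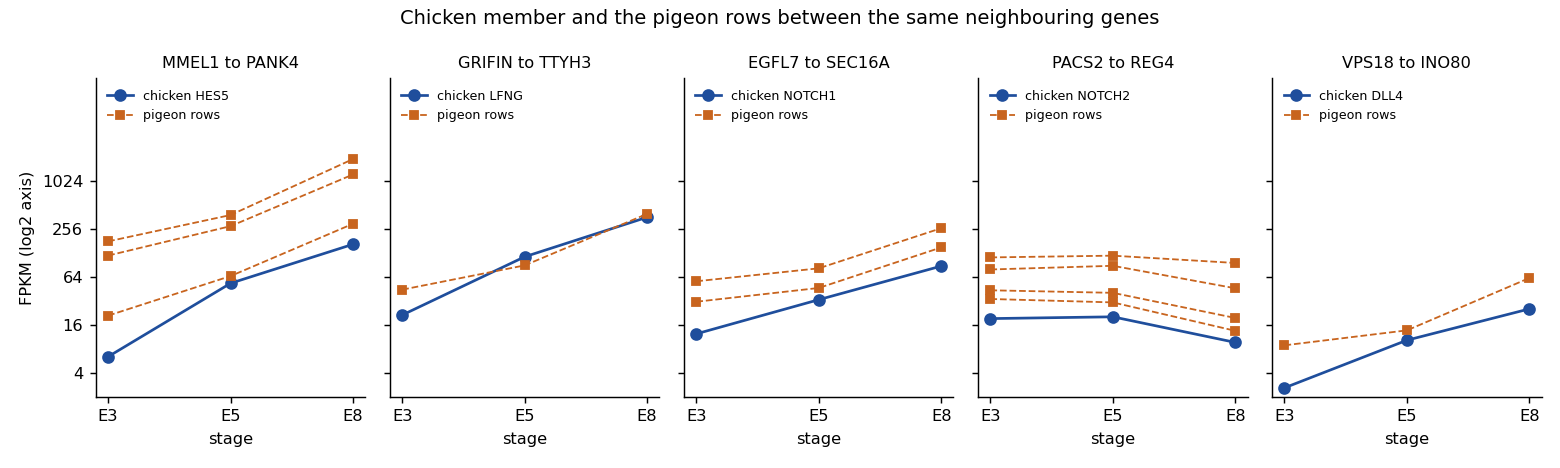
FPKM (vertical log2 axis) of 5 chicken members (blue circles) and of the pigeon rows that lie between the same neighbouring genes (orange squares) at each stage. Each panel is titled with the pair of neighbours, and rows listed at 0 are left out. The pigeon rows between MMEL1 and PANK4 reach 299 to 1941 FPKM at E8, and those between PACS2 and REG4 are lowest at E8.

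The rest of the pathway was read from a list of 67 genes in 9 roles, of which the 8 members are part. In chicken 52 were listed once and in pigeon 29, and only these were counted. Of the 42 chicken genes compared that are no members, 2 were higher from E3 to E5 by at least 1 (HES6 and HEYL), 1 from E5 to E8 (HES6), and 0 were lower at either step. The 2 genes higher were 4.76% of the 42 and the 1 gene 2.38%, where all chicken genes gave 1.97% and 4.53%. Their median changes were 0.00066 and 0.02. Between E3 and E8, 5 were higher and 0 lower. The 5 were HES6, HEYL, DTX4 (1.30), RBPJ (1.09) and MFNG (1.26), the last at only 2.71 FPKM at its highest. These 5 were 11.9%, against 6.65% of all chicken genes. Of the 27 such pigeon genes, 1 was higher from E3 to E5 (HES6), and from E5 to E8 2 were higher (HES6 and NRARP) and 1 was lower (NEURL1). Between E3 and E8, 3 were higher (HES6, NRARP and JAG2, at 1.03) and 1 was lower (NEURL1). The pigeon shares were 3.70% higher against 1.51% of all genes for E3 to E5, and 7.41% against 8.04% for E5 to E8. Between E3 and E8 they were 11.1% against 9.39%, so the later counts of higher genes were near the background. The 1 lower pigeon gene was 3.70% of the 27, against 7.25% of all genes for E5 to E8 and 8.58% between E3 and E8. From E3 to E5, 0 were lower, against 1.36%. In chicken 0 of the 42 were lower in any interval, where all genes gave 1%, 4.46% and 5.29%. With the members included, the whole chicken list had medians of 0.05 and 0.06, and the pigeon list 0.01 for each step.

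HES6 had the largest change between E3 and E8 of the list genes compared, at 4.51 in both species. It belongs to the HES family but is known to oppose HES1 and to promote neuronal differentiation. The list holds it among the targets, and whether Notch induced it here was not tested. HES6 was at 3.34, 15.8 and 97.7 FPKM in chicken and at 17.6, 37.1 and 422 in pigeon. In chicken it changed by 1.95 and then by 2.56, and in pigeon by 1.04 and then by 3.47. HEYL, a HEY family repressor, was at 1.52, 5.02 and 4.49 FPKM in chicken, and its change was 1.26 and then −0.13. In pigeon HEYL was nearly flat, at 13.0, 15.3 and 13.6 FPKM (0.21 and −0.15). NRARP, a small feedback inhibitor of Notch signalling, was at 118, 208 and 442 FPKM in pigeon, on a model of 228 bases, with changes of 0.81 and 1.08.

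Outside the receptors, ligands, fringe enzymes and targets, 0 chicken genes of the list were past 1 at either step. All 7 chicken genes of receptor cleavage compared changed by under 1 at both steps, and the largest was FURIN, the protease that cuts the receptor precursor, at −0.32 from E5 to E8. The largest change among the nuclear complex in chicken was that of RBPJ, at 13.6, 15.6 and 29.9 FPKM (0.19 and 0.90). Among corepressors it was NCOR1 (−0.67 from E5 to E8), among genes of ligand endocytosis EPN2 (0.29), and among antagonists and modulators DTX4, a Deltex family member, at 162, 217 and 398 FPKM (0.42 and 0.87). Among genes listed once in pigeon, the largest were SNW1 (0.58) in the nuclear complex, CTBP2 (0.92) among corepressors, ADAM10 (0.27) in cleavage and AAK1 (−0.36) among antagonists. Symbols in several pigeon rows, such as RBPJ, KAT2B, APH1A and DTX4, were not ranked, and some of their rows changed more. The higher RBPJ row, at 24.6, 25.9 and 99.1 FPKM, changed more than SNW1, and the other RBPJ row was at 0.902, 0.869 and 0. NEURL1, a ubiquitin ligase of Notch ligands listed as NEURL, was at 4.59, 4.73 and 1.65 FPKM in pigeon (−1.12 from E5 to E8). JAG2 was at 6.22, 7.56 and 10.4 FPKM in chicken and at 5.98, 6.99 and 13.2 in pigeon, higher at E8 in both species with steps under 1.

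**Figure D5:**
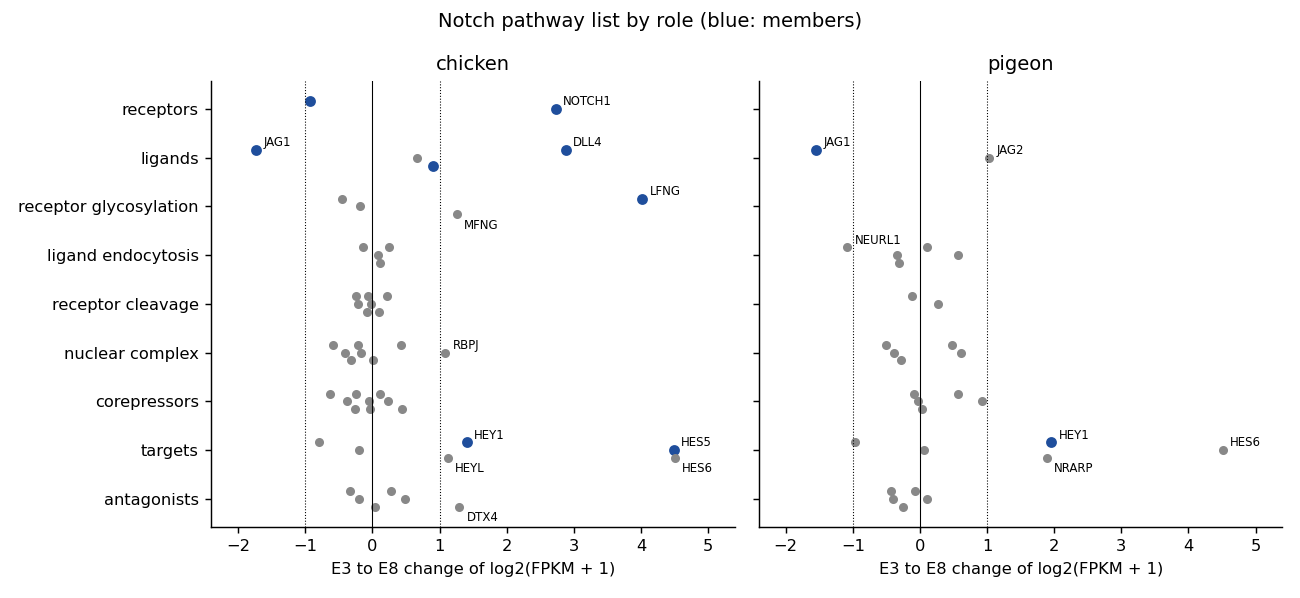
Change of log2(FPKM + 1) between E3 and E8 for each gene of the pathway list that was compared, by role, in chicken (left) and pigeon (right). Members are blue and other genes grey, dotted lines mark −1 and 1, and genes past them are named. Points past 1 stand mostly among receptors, ligands, receptor glycosylation and targets, and the cleavage genes lie near 0. HES6, at 4.51 in both species, is drawn with the targets, and whether Notch induced it was not tested.

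Genes with the course most like each member were looked for among symbols listed once that reached 5 FPKM, by the root mean square difference of the log2 changes. Over the 2 chicken changes and 7650 genes, HES5 was nearest to LFNG (0.36), followed by CKMT1A (0.52) and ATOH7 (0.59), the proneural factor of ganglion cells. LFNG was nearest to LIMCH1 (0.35), HES5 (0.36) and NGFR (0.41). NOTCH1 was nearest to NEFL, a neurofilament gene (0.06), OPCML (0.10) and PTN (0.12). DLL4 was nearest to MEGF10 (0.09), NOTCH1 (0.23) and NGFR (0.23), DLL1 to ANTXR2 (0.0074), HIGD2A (0.01) and CHRNA4 (0.03), and NOTCH2 to C1ORF216 (0.03), CRIP2 (0.04) and CRTAP (0.04). A likeness over 2 changes is a weak one, since only 2 values are matched. The nearest genes of HES5 and LFNG (0.36 and 0.35) lay farther off than those of DLL1 (0.0074) and NOTCH2 (0.03). Over 4 changes in both species and 4507 genes, JAG1 was nearest to F3 (0.18), TNFRSF19 (0.25) and TFEC (0.36), and HEY1 to KNDC1 (0.15), EML1 (0.19) and GNG10 (0.21). ATOH7 itself was at 22.4, 117 and 555 FPKM in chicken and at 37.5, 133 and 1827 in pigeon.

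Markers of neighbouring tissues moved with some of these values. DLL4, NOTCH1 and HEYL are also expressed in vessels, and of 10 chicken endothelium genes compared, 2 were higher at E5 than at E3 and 0 lower, with a median change of 0.61. The summed level of the 12 endothelium genes found was 50.0 FPKM at E3, 73.1 at E5 and 38.7 at E8. The part of endothelium in the E3 to E5 changes of DLL4, NOTCH1 and HEYL was not tested. At E8, 7 of 9 endothelium genes were lower than at E5, while DLL4 and NOTCH1 were at their highest. CDH5, the cadherin of endothelial junctions, was at 5.04, 8.01 and 0.127 FPKM over the stages, and ECSCR and ROBO4 (0.266 at its highest) were listed at 0 at E8. The most abundant genes of the list did not follow, with the receptor KDR at 12.4, 17.2 and 18.3 FPKM and PECAM1 at 12.6, 11.6 and 15.3. The part of endothelium at E8 was not tested either. In pigeon, the 8 endothelium rows summed to 60.3, 40.3 and 6.44 FPKM, with 3 listed at 0 at E8. Of 4 pigeon endothelium genes compared from E5 to E8, 2 were lower by at least 1. PECAM1 was not lower, at 3.39, 2.55 and 2.58 FPKM over the stages. The part of endothelium in the pigeon member values was not tested.

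JAG1 and NOTCH2 were lower at E8 along with these other tissues. From E5 to E8 in chicken, 5 of 7 lens genes, 8 of 8 pigment epithelium genes and 9 of 10 periocular mesenchyme genes compared were lower by at least 1. The mesenchyme sum was 163, 241.1 and 15.4 FPKM over the stages. In pigeon, 2 of 5 lens genes, 4 of 4 pigment epithelium genes and 3 of 4 mesenchyme genes were lower (1 lens and 1 mesenchyme gene were higher), and the mesenchyme sum was 428, 319 and 121. Of the 10 pigeon mesenchyme rows, 4 were listed at 0 at E8. The sum there rests largely on the second KERA row and on PDGFRA, at 83.6 and 25.2 FPKM. In chicken 1 gene of each of the lens and mesenchyme lists was at 0 at E8, CRYBA2 and PRRX1. Others remained, such as CRYAB at 52.1 FPKM (45.8 at E5), ASL2 at 4.53, PDGFRA at 6.35 and COL1A1 at 5.75. The part of these tissues in the values of JAG1 and NOTCH2 was not tested.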

How the data were processed

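FPKM values were deposited by the authors in 2 tables, 1 per species, with 1 column per stage, per the file headers. TopHat2, Bowtie2, Cufflinks and Cuffdiff were used, per the submitters' processing notes. Their versions, the genome builds and the annotation were not given in the sources used here, nor were read totals. Per the labels' protocols, a stranded mRNA kit was used on 1 µg of total RNA. Use of strand in counting is not given.

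Each column pools the 3 libraries of a group, so limma, planned for a column per library, was not used. Changes of log2(FPKM + 1) were computed in Python 3.11.15 with pandas 2.3.3 for rows that reached 1 FPKM at some stage and were above 0 at both compared stages. Counting was tried on copies of the real E3 values, with large changes planted in well-expressed genes and no noise added. It shows only that such changes are counted, and nothing about low genes or noise. Depth is unknown beyond the smallest steps given for pigeon. Starts, counted from 0 in the pigeon table (2768 models have a length of end minus start), were converted to count from 1 in both tables. Older symbols were matched through a RefSeq chicken gene table (GRCg7b), from which no coordinates were taken. It matched 1 pathway gene in each species.

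The members, lists and rules were chosen with earlier results of these data known. All members were named. Other pathway genes were named when past 1 with at least 5 FPKM or when largest of their role, and the 3 genes most like each member. Some others, such as chicken MFNG, were named besides. Alternatives were pseudocounts of 0.1 and 5, other filters, 2 scalings and other uses of symbols with several rows.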

Additional observations from a re-analysis of the deposited data

How the results depend on the processing

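Of 306 member changes and species differences recomputed under the alternatives, 297 kept their side of 1 and 9 crossed it. Many of the 306 could not cross. Other filters only choose the genes compared, and they left every member value as it was. Keeping the highest row of each symbol repeats the value of that row, and among the members summing rows alters only DLL1. The share of 297 is therefore no measure of robustness. The sign changed in 1 of the 306, the JAG1 difference between species for E3 to E8, from 0.19 to −0.30 with a pseudocount of 5. Of 48 list medians recomputed, 6 changed sign, all pigeon medians near 0. Of 228 counts and medians, 203 stayed within 1.5 times (counts) or 0.1 (medians). With a pseudocount of 0.1, the lower counts from E5 to E8 in chicken were 2 for members and 2 for the pathway list (NOTCH2 at −1.06), that list had 1 lower gene in pigeon from E3 to E5, and the JAG1 difference between species from E5 to E8 was 1.28 (0.096 with 5). With a pseudocount of 5, JAG1 was at −0.98 in chicken and −0.88 in pigeon from E5 to E8 and DLL4 at 0.99, so the lower counts of members and list were 0 in chicken at both E5 to E8 and E3 to E8 and 0 in pigeon from E5 to E8. The pigeon list then had 0 higher from E3 to E5 and 1 lower between E3 and E8. With a filter of 5 FPKM it had 1 lower at E5 to E8 and 1 at E3 to E8. Median-ratio scaling and quantile normalisation put NOTCH2 at −1.02 and −1.001, past 1, for 2 lower members and 2 lower list genes. With the rows of a symbol summed, pigeon DLL1 changed by 1.41 between E3 and E8, but this sum joins rows among different neighbours (0.83 and 2.68). In that setting 1 pigeon member was higher from E5 to E8, and the list had 5 higher there and 7 between E3 and E8. With the highest row of each symbol, chosen after seeing the data, 1 pigeon member was higher in each of these intervals, and the list had 5 higher from E5 to E8 and 4 lower in both. The alternatives change the offset, the genes compared or the rows used by construction. No paired analysis was possible because the columns carry no replicate. Leaving out replicates and promoter motifs were not run.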

Other observations

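Some pathway symbols stand in several pigeon rows and were left out of the counts. RBPJ, the DNA-binding partner of the Notch receptor, was at 24.6, 25.9 and 99.1 FPKM over E3, E5 and E8 in one pigeon row and at 0.902, 0.869 and 0 in the other. The chicken row was at 13.6, 15.6 and 29.9. HES4, a hairy-related repressor, went opposite ways in its 2 pigeon rows, at 110.3, 114 and 151 FPKM in one and 370.2, 348 and 131 in the other, and was at 136, 145 and 78.3 in chicken. KAT2B, a histone acetyltransferase, also differed between its rows, at 3.02, 3.75 and 7.29 FPKM and at 50.0, 45.8 and 22.1. DTX4 was at 188, 199 and 302 FPKM in the higher of its pigeon rows. A second pigeon row named MFNG was at 2.08, 2.16 and 12.8 FPKM, and the chicken MFNG row was at 0.553, 0.911 and 2.71.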
